A study of Homo sapiens with 6 samples.

Results

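The genes of DNA double-strand break and crosslink repair are 44 genes whose products sense, process or mend broken or crosslinked DNA. They were chosen by symbol: a locus of the deposited expression table was taken where its symbol, or one of the symbols joined in it, was on the list. Each of the 44 genes had 1 locus among the 74852 loci listed, and all 44 had a mean of at least 10 normalized reads over the libraries, the minimum for testing that 18849 loci passed.

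The cells were MDA-MB-231, an established line of triple-negative breast cancer. Both groups went through 2 rounds of Lipofectamine transfection and were harvested, per the labels, 24 h after the last round; the study's methods give another interval. The si-CTRL group received a non-targeting siRNA and the si-SAM68 group a pool of 4 siRNAs against SAM68, the RNA-binding and signalling protein encoded by KHDRBS1. Each group had 3 poly(A)-selected RNA libraries, and the comparison asks which transcripts differ in amount once SAM68 is depleted.

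The si-CTRL libraries held 52625492, 67124351 and 69355385 reads on the listed loci, in the order of replicates 1 to 3. The si-SAM68 libraries held 65473122, 82568487 and 59488569 reads. The ribosomal RNA locus took 15.1% of the reads of si-SAM68 replicate 2 and 1.83% to 3.17% of those of the other libraries. Values below are the deposited normalized reads, that is reads per locus divided by a size factor of the library, and lists of 3 values follow replicates 1 to 3. The labels do not say whether the replicates came from separate cultures, so the p-values measure only the spread between these libraries.

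Markers of the line were present and markers of other cells low. VIM, the mesenchymal intermediate filament, lay between 138300 and 173160 normalized reads over the 6 libraries, CD44 between 43246 and 68397, and AXL between 43113 and 60461. CAV1, the caveolar coat protein, stood at 60054, 62144 and 59554 in si-CTRL and at 91286, 92490 and 95518 in si-SAM68, and rose (log2 fold change 0.62, SE 0.0706, adjusted p = 0.00101). The oestrogen receptor ESR1 lay between 1.94 and 15.2 at 1 of its 2 loci and was at 0 in all 6 libraries at the other, the progesterone receptor PGR was listed at 0 in all 6, and the epithelial adhesion genes CDH1 and EPCAM did not exceed 4.60 and 9.20. Among genes of blood and endothelium, PTPRC did not exceed 13.6, CD3E 0.920, PECAM1 16.2 and CDH5 42.5.

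A double-strand break is sensed by the MRE11A, RAD50 and NBN complex and by the kinases ATM and ATR, which mark the surrounding chromatin and halt the cell cycle through CHEK1 and CHEK2. The break is then joined directly by the Ku and DNA-PK proteins, or resected and copied from the sister chromatid by recombination, in which BRCA1, BRCA2, PALB2 and a group of strand exchange factors act. The Fanconi anaemia proteins load FANCD2 and FANCI onto DNA at interstrand crosslinks, and inherited loss of some of these genes underlies breast cancer risk and the sensitivity of such tumours to PARP inhibitors and platinum drugs.

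The 4 siRNAs of the pool are shown because they define the depletion and because a siRNA can also act on transcripts that match its seed. All are sense strands, as 3 or all 4 of the 4 KHDRBS1 transcripts in GENCODE v29 hold each of them. Capitals mark the 7 bases that a transcript must hold to pair with bases 2 to 8 of the guide strand.
SAM68 siRNA 1: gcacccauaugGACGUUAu
SAM68 siRNA 2: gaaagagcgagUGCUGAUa
SAM68 siRNA 3: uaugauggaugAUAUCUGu
SAM68 siRNA 4: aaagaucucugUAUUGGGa

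KHDRBS1, the target, stood at 15660, 14483 and 14737 normalized reads in si-CTRL and at 583, 602 and 670 in si-SAM68. Every si-SAM68 library lay far below every si-CTRL library. The log2 fold change was -4.60 (SE 0.0829, 95% interval -4.78 to -4.41, n = 3 libraries a group), and the adjusted p = 2.13e-09 by limma with Benjamini-Hochberg adjustment over the 18849 loci.

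Against that depletion the repair genes differed little between the groups. CHEK2 and FANCD2 rose, by 1.24-fold and 1.27-fold, the locus that holds RAD51D fell by 0.28 on the log2 scale and FANCE fell by 0.42, while the other 40 members did not pass the test. Those 4 called members are 9.09% of the 44, beside 10.7% of all loci tested (adjusted p under 0.05). The 2 higher stand beside 4.47% of all loci called higher, and the 2 lower beside 6.23% called lower. All 44 members averaged at least 100 normalized reads, and of the loci at that level 13.4% were called. These are bulk RNA values, in which fewer cells of a type and less RNA per cell cannot be told apart.

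With limma, 0 of the 44 members passed the thresholds the study used. These were an unadjusted p of at most 0.05 with at least a 1.5-fold difference. Of all loci 7.67% passed, and of the 13619 loci averaging 100 normalized reads or more, 792 did. The lists set beside the members below had 0 of 60 further repair genes, 0 of 20 mitosis genes and 2 of 38 DNA replication genes. These counts come from the limma fit and are not the study's own count of regulated genes. At that unadjusted p alone there were 10 members, 8 higher and 2 lower, or 22.7% beside 27% of all loci tested and 31.8% of those averaging 100 normalized reads or more, and edgeR and DESeq2 also put 0 members past the study's thresholds. The groups did not overlap for 12 members, 10 with all si-SAM68 libraries above and 2 with all below, or 27.3% beside 33.9% of all loci and 38.5% of those at that level. The numbers of members and of all loci called (4 and 2017 of 18849) both depended on the libraries and on the test. Without si-CTRL replicate 1, 7 members were called, beside 2839 loci. Without si-CTRL replicate 2 or 3 it was 2 members, beside 1592 and 1103 loci. Without si-SAM68 replicate 1, 2 or 3 it was 0 members, beside 923, 808 and 625 loci. With all 6 libraries it was 7 members by DESeq2, beside 2811 loci, and 1 without limma's trend, beside 899 loci. With no filter on low values it was 2 members, beside 1500 loci, out of a larger number of loci tested. With the replicate number as a block it was 5 members and 1697 loci, more members and fewer loci than the 4 and 2017 without it. ATM, MRE11A and FANCF were then called and CHEK2 and RAD51D were not.

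The range of the members was narrow. Their log2 fold changes ran from -0.42 for FANCE to 0.40 for FANCF, with a median of 0.06 beside 0.01 over all loci tested. Of the members 33 were above 0 and 11 below, beside 9591 above and 9258 below of all loci tested. The further repair genes had 38 above and 22 below, the mitosis genes 14 and 6, and the DNA replication genes 11 and 27. For 20 members that were not called the sign turned under at least 1 alternative, most often without si-CTRL replicate 1 (11 members). For 41 of the 44 members (93.2%) the 95% interval lay inside a 1.5-fold difference in either direction, beside 56.2% of all loci and 75.6% of those averaging 100 normalized reads or more. The lists set beside the members below had similar shares, 91.7% of the further repair genes, 95% of the mitosis genes and 89.5% of the DNA replication genes. The exceptions were MRE11A, FANCF and FANCE, named here after their values were seen. The plot of fold changes by role shows this narrow band and the few members outside its middle.

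**Figure D1:**
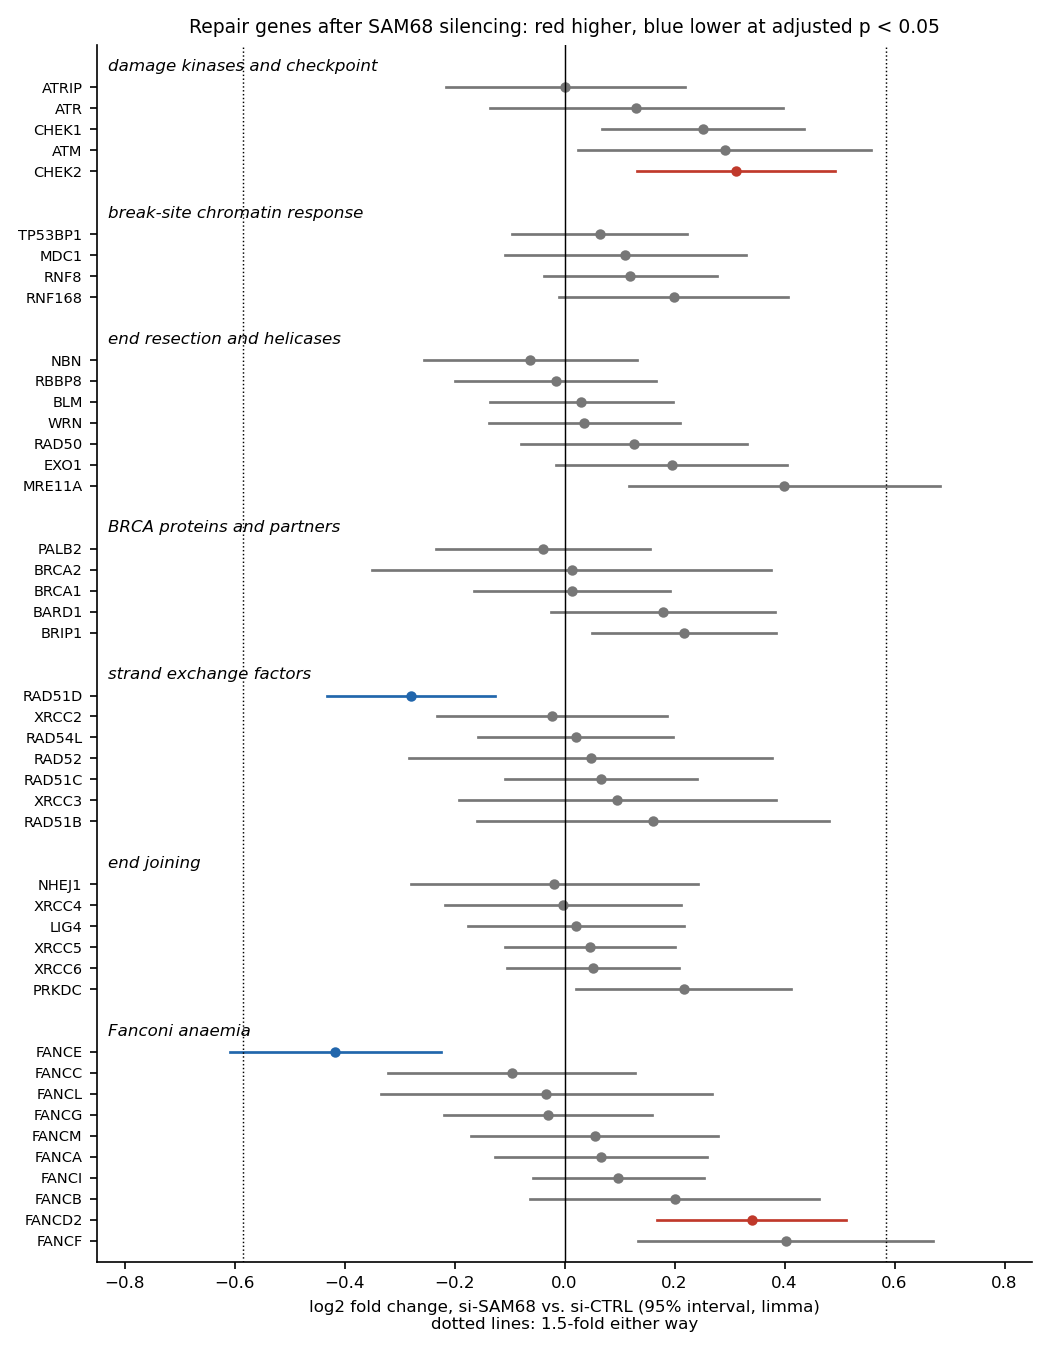
Log2 fold change (si-SAM68 over si-CTRL, 3 libraries each) of the 44 repair genes by role, with bars for 95% limma intervals. The values run from -0.42 for FANCE to 0.40 for FANCF, and the 4 called members are CHEK2, FANCD2, FANCE and the RAD51D locus.

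The damage kinases and their checkpoint targets had the highest median of the 7 roles, a log2 fold change of 0.25 over 5 genes. Of these, 1 was called (20%), beside 10.7% of all loci tested and 13.4% of those averaging 100 normalized reads or more. CHEK2, the checkpoint kinase that ATM activates, is at chr22:29083731-29138418 (hg19). It stood at 2146, 2383 and 2411 normalized reads in si-CTRL (mean 2313, SD 145) and at 2825, 2808 and 2972 in si-SAM68 (mean 2869, SD 90.4). All 3 si-SAM68 libraries were above all 3 si-CTRL libraries, and the gap between the groups was wider than the spread within either. The log2 fold change was 0.31 (SE 0.0806, 95% interval 0.13 to 0.49, adjusted p = 0.0371). The adjusted p was 0.0512 with the replicate block and ran from 0.00866 to 0.144 over the alternatives. The call was lost without si-CTRL replicate 2 (0.0676), si-CTRL replicate 3 (0.0698) or si-SAM68 replicate 1 (0.0894), 2 (0.119) or 3 (0.144). It was also lost with no filter on low values (0.0544), without limma's trend (0.095) and by edgeR with the block (0.0501).

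ATM, the kinase that responds first to double-strand breaks (chr11:108093211-108239826), stood at 7508, 9772 and 8993 in si-CTRL and at 9151, 11488 and 11496 in si-SAM68. Replicate 1 was the lowest library of each group, and the groups overlapped because si-SAM68 replicate 1 lay below si-CTRL replicate 2. ATM had a log2 fold change of 0.29 (SE 0.119, 95% interval 0.02 to 0.56) and did not pass the test (adjusted p = 0.151). With the replicate number as block its adjusted p was 0.0473, the lowest in a range of 0.0473 to 0.397 over the alternatives, and by edgeR with the block it was 0.0491. CHEK1, the kinase that ATR activates at stalled forks, stood at 2531, 2762 and 2899 in si-CTRL and at 3123, 3232 and 3391 in si-SAM68. These groups did not overlap, and CHEK1, named here after its values were seen, had a log2 fold change of 0.25 and an adjusted p = 0.0799. DESeq2 called it (0.0466), the lowest in a range of 0.0466 to 0.25 over the alternatives. ATR itself had 0.13, and its partner ATRIP, in a locus joined with the exonuclease gene TREX1, had 0.00.

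The break-site chromatin response held 4 genes, with log2 fold changes from 0.06 to 0.20 and a median of 0.12. With limma 0 of the 4 were called, beside 10.7% of all loci tested, and 0 had an unadjusted p under 0.05, beside 27%. edgeR and DESeq2 also called 0. TP53BP1, which shields broken ends from resection (chr15:43699407-43802736), stood at 11338, 11993 and 11068 in si-CTRL and at 11557, 12402 and 11995 in si-SAM68. The groups overlapped, and its log2 fold change of 0.06 had a 95% interval from -0.10 to 0.22 (SE 0.0713, adjusted p = 0.607). The scaffold MDC1 had 0.11 and the ubiquitin ligase RNF168, which modifies histones at breaks, 0.20. For the ligase RNF8, which acts before RNF168, all si-SAM68 libraries (3450, 3559 and 3565) lay above all si-CTRL libraries (3306, 3188 and 3238), with a log2 fold change of 0.12.

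End resection and the helicases had a median log2 fold change of 0.04 over 7 genes. With limma 0 of the 7 were called, beside 10.7% of all loci tested, and 1 had an unadjusted p under 0.05 (14.3%, beside 27%). edgeR also called 0 and DESeq2 called 1, and both of these single genes were MRE11A. MRE11A, the nuclease that begins resection (chr11:94150466-94227040), stood at 625, 744 and 852 in si-CTRL (mean 740, SD 113) and at 919, 919 and 1078 in si-SAM68 (mean 972, SD 91.9). The si-SAM68 libraries were all above the si-CTRL libraries, by a margin smaller than the spread within si-CTRL. Its log2 fold change was 0.40 (SE 0.127, 95% interval 0.12 to 0.68, adjusted p = 0.0737), and with the replicate block the adjusted p was 0.0473, in a range of 0.0277 (DESeq2) to 0.263 over the alternatives. By edgeR with the block it was called as well (0.0430). Its partners in the complex differed less: RAD50 had 0.13 and NBN -0.06. RBBP8, which activates the nuclease and whose locus is joined with the microRNA gene MIR4741, had -0.02, the exonuclease EXO1 0.19, and the helicases BLM and WRN 0.03 and 0.04. EXO1 stood at 9464, 7704 and 7614 in si-CTRL and at 9189, 9270 and 9773 in si-SAM68, so that si-CTRL replicate 1 alone fell among the si-SAM68 values. Without si-CTRL replicate 1, EXO1 was called (adjusted p = 0.00793).

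The BRCA proteins and their partners had log2 fold changes from -0.04 to 0.22, with a median of 0.01 over 5 genes. With limma 0 of the 5 were called, beside 10.7% of all loci tested, and 1 had an unadjusted p under 0.05 (20%, beside 27%). edgeR and DESeq2 also called 0. BRCA1, the ubiquitin ligase subunit that promotes resection (chr17:41196313-41322420), stood at 5920, 5719 and 5370 in si-CTRL and at 5335, 5751 and 6098 in si-SAM68. The si-SAM68 group held both the lowest and the highest of the 6 values. The log2 fold change of BRCA1 was 0.01 (SE 0.0801, 95% interval -0.16 to 0.19, adjusted p = 0.934). BRCA2, a mediator of strand exchange, stood at 217, 291 and 260 in si-CTRL and at 224, 312 and 242 in si-SAM68, with an interval of -0.35 to 0.38 around 0.01. The BRCA1 partner BARD1 had 0.18, and PALB2, which bridges BRCA1 and BRCA2, had -0.04. The helicase BRIP1 stood at 8905, 8020 and 7938 in si-CTRL and at 9429, 9506 and 9938 in si-SAM68. Its groups did not overlap, its log2 fold change was 0.22 and its adjusted p = 0.0960, which became 0.0114 without si-CTRL replicate 1.

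The strand exchange factors had a median log2 fold change of 0.05 over 7 genes. Of these, 1 was called (14.3%), beside 10.7% of all loci tested and 13.4% of those averaging 100 normalized reads or more. RAD51D, a subunit of a complex that assists strand exchange, shares its locus with the ubiquitin ligase gene RFFL (chr17:33336131-33448541), so its value counts reads of both genes. The locus stood at 9098, 9147 and 9242 in si-CTRL (mean 9162, SD 73.6) and at 7237, 7732 and 7691 in si-SAM68 (mean 7553, SD 274). All si-SAM68 libraries were below all si-CTRL libraries. The log2 fold change was -0.28 (SE 0.0687, 95% interval -0.43 to -0.13, adjusted p = 0.0313), and which of the 2 genes carries it was not tested. The adjusted p was 0.0513 with the replicate block and ran from 0.00639 to 0.108 over the alternatives. The call was lost without si-CTRL replicate 2 (0.0801), si-CTRL replicate 3 (0.0959) or si-SAM68 replicate 1 (0.0987), 2 (0.108) or 3 (0.0948), with no filter (0.0521), without the trend (0.0907) and by edgeR with the block (0.0562).

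RAD51C, a subunit of more than 1 such complex (chr17:56769930-56811702), stood at 2024, 2179 and 2249 in si-CTRL and at 2233, 2241 and 2276 in si-SAM68. The groups overlapped, and the log2 fold change of 0.07 had an interval of -0.11 to 0.24 (SE 0.0782, adjusted p = 0.628). RAD51B had 0.16, with si-CTRL replicate 1 (847) below the other 5 libraries (1188 to 1286), and -0.02 without that library. XRCC2 and XRCC3, subunits of these complexes, had -0.02 and 0.10, the annealing protein RAD52 had 0.05, and the motor protein RAD54L had 0.02.

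End joining had a median log2 fold change of 0.03 over 6 genes. With limma 0 of the 6 were called, beside 10.7% of all loci tested, and 1 had an unadjusted p under 0.05 (16.7%, beside 27%). edgeR and DESeq2 also called 0. XRCC6, the Ku70 subunit that caps broken ends (chr22:42017167-42060052), stood at 66004, 63523 and 64567 in si-CTRL and at 67161, 65330 and 68720 in si-SAM68. The groups overlapped, and the log2 fold change of 0.05 had an interval of -0.10 to 0.21 (SE 0.0700, adjusted p = 0.678). XRCC5, the Ku80 partner of XRCC6, had 0.05 as well. PRKDC, the kinase that Ku recruits, stood at 4402, 4673 and 3839 in si-CTRL and at 4840, 5108 and 5011 in si-SAM68, and is named here after its values were seen. Its groups did not overlap, with a log2 fold change of 0.22 and an adjusted p = 0.145. The ligation factors XRCC4, LIG4 and NHEJ1 lay between -0.02 and 0.02, and the NHEJ1 locus is joined with the transporter gene SLC23A3.

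The Fanconi anaemia genes held called members in both directions, 1 higher and 1 lower of 10, around a median of 0.06. That is 20%, beside 10.7% of all loci tested and 13.4% of those averaging 100 normalized reads or more. FANCD2, which is ubiquitinated and clamped on DNA at crosslinks (chr3:10068071-10143620), stood at 11000, 12346 and 10911 in si-CTRL (mean 11419, SD 804) and at 13887, 14629 and 14802 in si-SAM68 (mean 14439, SD 486). All si-SAM68 libraries were above all si-CTRL libraries. The log2 fold change was 0.34 (SE 0.0768, 95% interval 0.17 to 0.51, adjusted p = 0.0225). The adjusted p was 0.0353 with the replicate block and ran from 0.00225 to 0.10 over the alternatives. The call was lost without si-CTRL replicate 3 (0.0806) or si-SAM68 replicate 1 (0.0547), 2 (0.10) or 3 (0.10), and without the trend (0.0841).

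FANCE, the core complex subunit that binds FANCD2 (chr6:35420127-35434881), went the other way. It stood at 1250, 1128 and 1157 in si-CTRL (mean 1178, SD 63.5) and at 871, 882 and 891 in si-SAM68 (mean 882, SD 10.0). The 3 si-SAM68 values lay close together and below every si-CTRL value. The log2 fold change was -0.42 (SE 0.0859, 95% interval -0.61 to -0.23, adjusted p = 0.0156), the lowest of the 44 members. The adjusted p was 0.0335 with the replicate block and ran from 0.000927 to 0.0719 over the alternatives. The call was lost without si-SAM68 replicate 1 (0.0551), 2 (0.0719) or 3 (0.0669).

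FANCF, the adaptor of the core complex (chr11:22644079-22647387), is named after its values were seen. It stood at 1377, 1740 and 1918 in si-CTRL and at 2132, 2119 and 2349 in si-SAM68, so that the groups did not overlap and si-CTRL replicate 1 was the lowest. It had a log2 fold change of 0.40 (SE 0.120, 95% interval 0.13 to 0.67) and missed the threshold (adjusted p = 0.0610). With the replicate block the adjusted p was 0.0467, in a range of 0.0166 to 0.221, and it was called without si-CTRL replicate 1 (0.0446) or si-CTRL replicate 3 (0.0427). DESeq2 (0.0166) and edgeR with the block (0.0434) called it as well. FANCI, the partner of FANCD2 on DNA, had 0.10, with all si-SAM68 libraries (14525, 14640 and 15241) above all si-CTRL libraries (13214, 14132 and 14164). Of the other core complex subunits, FANCA had 0.07, FANCB 0.20, FANCC -0.10, FANCG -0.03 and the ubiquitin ligase FANCL -0.03. The DNA translocase FANCM had 0.05. Library values of RNF8, EXO1, BRCA2, BRIP1, RAD51B and FANCI were also given after they were seen. The plot of values by library sets the called members beside FANCF and the core genes of several roles.

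**Figure D2:**
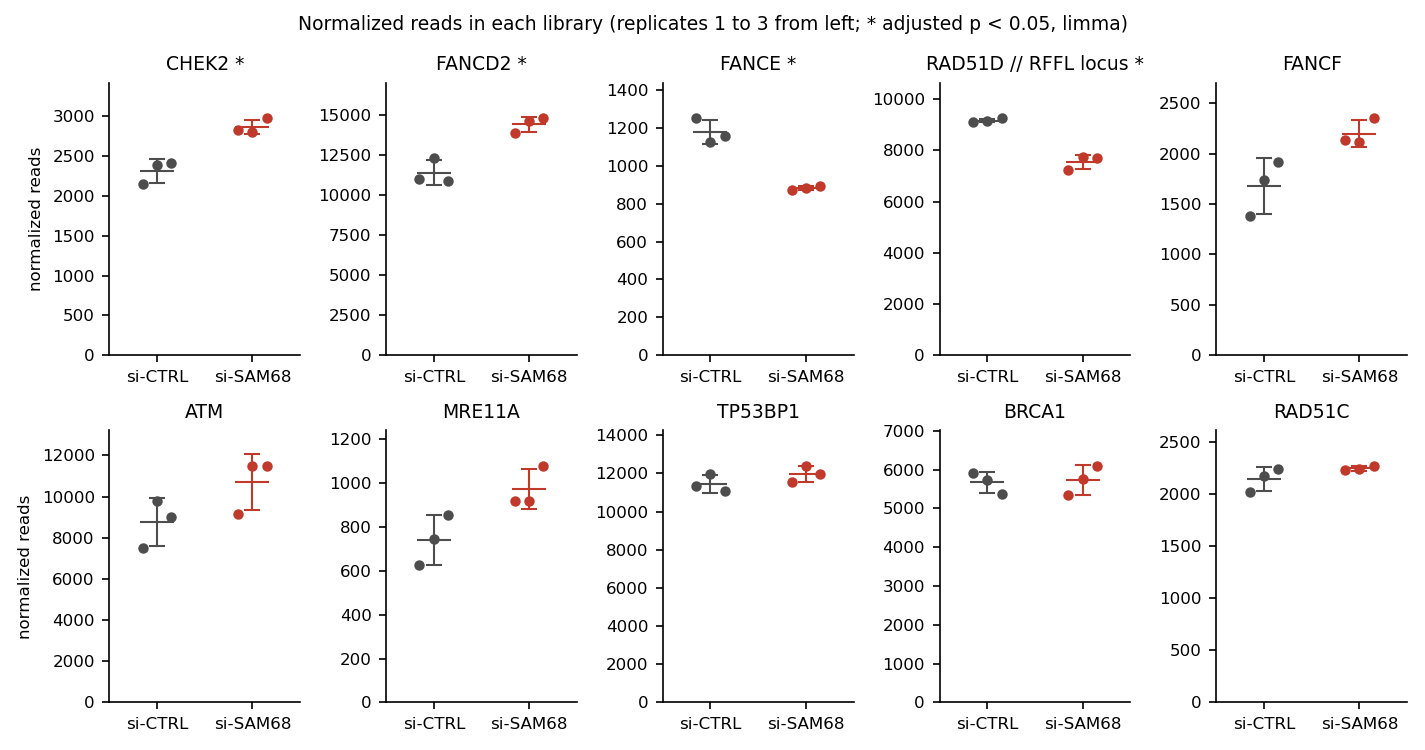
Normalized reads of 10 members in the 3 si-CTRL and 3 si-SAM68 libraries, 1 point a library, a line at each group mean and bars for 1 SD, each panel with its own axis. The si-SAM68 points lie above every si-CTRL point for CHEK2, FANCD2, FANCF and MRE11A and below for FANCE and RAD51D, and the groups overlap for ATM, TP53BP1, BRCA1 and RAD51C.

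The libraries did not take equal part in these values. si-SAM68 replicate 3 was the highest of the 6 libraries for 25 of the 44 members, beside 19.1% of all loci, and si-CTRL replicate 1 was the lowest for 19, beside 28.3% of all loci. Relative to the si-CTRL mean, the median log2 value of the members was -0.04, 0.02 and 0.01 in the si-CTRL libraries and 0.04, 0.09 and 0.10 in the si-SAM68 libraries. The si-SAM68 medians were above all 3 si-CTRL medians. The map of members by library shows which genes carry this.

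**Figure D3:**
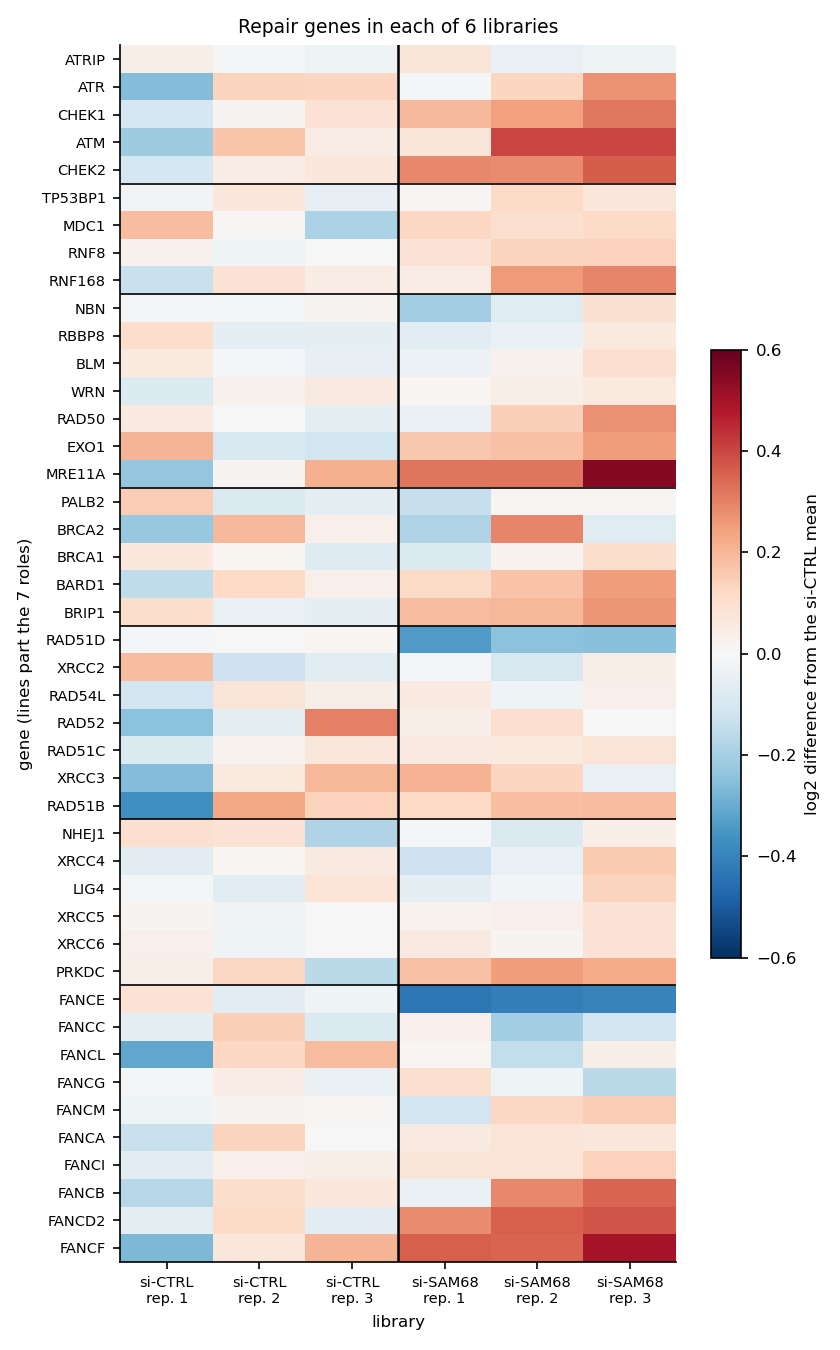
Each of the 44 members (1 line a gene, ordered by role) in each of the 6 libraries, coloured by its log2 value relative to the si-CTRL mean of that gene. The column of si-SAM68 replicate 3 holds the highest value for 25 members.

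Per kilobase of transcript, the levels of the members spanned a wide range in both groups. The si-CTRL mean was 23883 normalized reads per kb for XRCC6 and 15616 for XRCC5, the 2 Ku subunits, and 2917 for FANCI, 2378 for EXO1 and 2188 for FANCD2. The lowest were BRCA2 at 21.4, ATRIP at 104, FANCM at 109 and RAD52 at 112 normalized reads per kb. The genes named in this range are its 5 highest and 4 lowest, chosen after their values were seen. Across the 44 genes, which are not independent replicates, the log2 fold change had a Spearman rho of 0.01 with the span of the locus and 0.16 with the mean, beside -0.11 and 0.01 across all loci tested. By mean level, 31 members lay between 1000 and 10000 normalized reads, where 3 were called, beside 852 of 6653 loci (12.8%) in that range. Between 100 and 1000 lay 8 members with 0 called, beside 820 of 5628 loci (14.6%). At 10000 and over lay 5 members with 1 called, beside 151 of 1338 loci (11.3%).

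**Figure D4:**
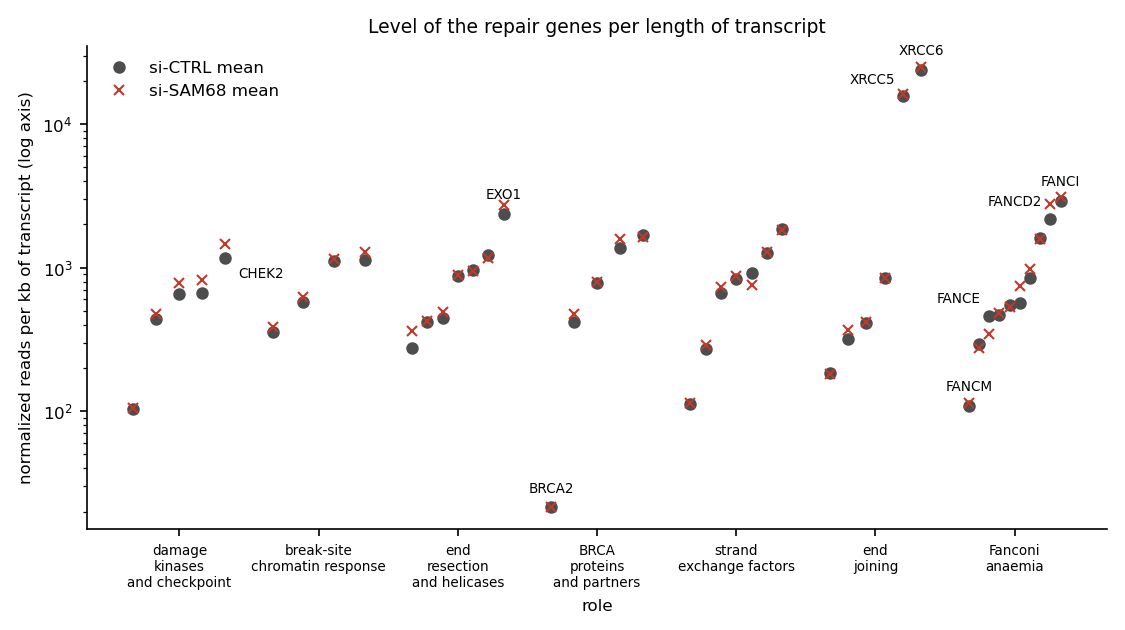
Mean normalized reads per kb of transcript (log axis) of the 44 members by role, with a circle for si-CTRL and a cross for si-SAM68 (3 libraries each). The levels run from 21.4 for BRCA2 to 23883 for XRCC6 in si-CTRL, and the crosses lie near the circles.

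Some member loci share sequence or ground with others, which bears on what their reads count. The strand setting of the count and the handling of reads with several matches are not given. GENCODE v29 lists 4 pseudogenes of CHEK2, 5 of XRCC6 and 1 each of FANCD2, MRE11A and RBBP8. In the deposited table CHEK2P2 was at 0 in all 6 libraries and XRCC6P5 had a mean of 0.323, and the part of the other copies in the values of CHEK2 and FANCD2 was not tested. Of 26 tested loci that overlap a member, 4 were called, 3 higher and 1 lower (15.4%, beside 10.7% of all loci tested), and 15 were above 0 and 11 below. NPAT, the histone gene regulator at the start of ATM, had a log2 fold change of 0.31 (adjusted p = 0.0401), beside 0.29 for ATM, while C11orf65, which also overlaps ATM, had -0.75 (adjusted p = 0.143). NPAT was not called with the replicate block (0.0665, in a range of 0.00973 to 0.165), nor without si-CTRL replicate 2 (0.0929) or 3 (0.116) or si-SAM68 replicate 2 (0.165) or 3 (0.156). PLS1 at ATR was called higher (0.40, adjusted p = 0.0378), but not without si-CTRL replicate 3 (0.0614) or si-SAM68 replicate 1 (0.0789), 2 (0.118) or 3 (0.155). It was called under 12 of the 18 alternatives (0.00632 to 0.155), NPAT under 10. NBR2 at BRCA1 had 0.36 (adjusted p = 0.0494) and was called under 7 of the 18 alternatives, with 0.0776 under the replicate block and a range of 0.0336 to 0.142. Leaving out any 1 library other than si-CTRL replicate 1 ended that call (0.0858 to 0.142). The locus of IL5 and SHROOM1 at RAD50 was called lower (-0.52, adjusted p = 0.0140), but not without si-SAM68 replicate 2 (0.0679) or 3 (0.0749), in a range of 0.000165 to 0.0749. None of these 4 was called without limma's trend (0.0573 to 0.107), and without the filter only the last was (0.0191). HSCB, which overlaps the start of CHEK2, had 0.23 and was not called (adjusted p = 0.231), and FANCD2OS at FANCD2 was at 0 reads. These neighbours were chosen after their values were seen.

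Seed matches to the pool were counted in the 3′UTR of 1 transcript per gene. SAM68 siRNA 1 had a match in 0 members and in 1.33% of 11848 genes, siRNA 2 in 4 members and 12% of genes, siRNA 3 in 7 members and 11.7%, and siRNA 4 in 3 members and 7.93%. At least 1 match lay in 11 of the 44 members, beside 26% of the genes. The median log2 fold change was 0.12 for the 11 members with a match and 0.05 for the 33 without. Of the called members, RAD51D and FANCD2 held matches, RAD51D for siRNA 2 and siRNA 3 and FANCD2 for siRNA 3, and CHEK2 and FANCE held none. The RAD51D matches were at positions 661 and 7726 of a 3′UTR of 8745 bases, that of FANCD2 at 143 of 710. Only the RAD51D transcript was searched, not that of RFFL, whose reads the locus also counts. The matched sites are shown because they are the places where the pool and the called members share letters, with the 7 matching bases in capitals.
RAD51D and siRNA 2: tcctttcctctTGCTGATttggtttcaga
RAD51D and siRNA 3: tgggaaaaataATATCTGtttcatagagt
FANCD2 and siRNA 3: tccatgaattcATATCTGaaaccatttta
RAD50 held the same pair of matches as RAD51D and PALB2 matches for siRNA 3 and siRNA 4, with log2 fold changes of 0.13 and -0.04 and no call. A match is a description of the letters and not a site of action.

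Promoter words were counted in RefSeq promoters (GRCh38.p14, 250 bases before to 50 after the start), which matched 39 of the 44 members. NBN, WRN, XRCC5, PRKDC and FANCI had no entry. An E2F word, any of TTTCCCGC, TTTCGCGC, TTTGCCGC and TTTGGCGC on either strand, lay in 6 of the 39 members (15.4%: EXO1, XRCC2, XRCC6, FANCA, FANCC and FANCD2), beside 3.31% of 35116 promoters. CCAAT on either strand lay in 18 members (46.2%), beside 34.6% of all, and TTTGAA, the core of the cell cycle homology region, in 4 (10.3%), beside 15.2%. The median log2 fold change was 0.06 for members with an E2F word and 0.06 for those without, 0.08 and 0.02 for CCAAT, and 0.16 and 0.05 for TTTGAA. The median GC content was 64.3% for the members and 58.7% for all promoters.

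The promoters of the 2 members that rose are shown in part because their words differ. That of CHEK2 held CCAAT on the opposite strand, written ATTGG in capitals, at 3 places, positions -199, -70 and -40 from the start. The 250 bases before its start are at chr22:28741821-28742070 on the minus strand of GRCh38.p14.
CHEK2: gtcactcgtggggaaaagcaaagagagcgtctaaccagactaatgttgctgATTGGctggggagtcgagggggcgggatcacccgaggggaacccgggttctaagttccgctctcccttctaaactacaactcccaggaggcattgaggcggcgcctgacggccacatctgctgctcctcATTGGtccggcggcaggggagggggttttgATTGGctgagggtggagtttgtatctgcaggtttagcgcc
FANCD2 held 1 E2F word, TTTCCCGC on the opposite strand, written GCGGGAAA in capitals. It lay at the start of the gene itself, beginning 2 bases before it. The 30 bases shown are at chr3:10026424-10026453 on the plus strand of GRCh38.p14.
FANCD2: cgtcgggcctgGCGGGAAAgtcgaaaacta

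Other genes of repair and of the cell cycle were set beside the members. Of 60 further repair genes tested, 3 were called, 1 higher and 2 lower, or 5% beside 10.7% of all loci tested, around a median log2 fold change of 0.05. DNA2, the nuclease and helicase of long-range resection, stood at 1355, 1360 and 1462 in si-CTRL and at 1938, 1873 and 2128 in si-SAM68, and rose by a log2 fold change of 0.51 (SE 0.0859, adjusted p = 0.00691). It was called under each of the 18 alternatives. ERCC1, a subunit of the nuclease that unhooks crosslinks, fell by 0.37 on the log2 scale (adjusted p = 0.0249), and was not called without si-SAM68 replicate 1 (0.0585), 2 (0.10) or 3 (0.111), nor without limma's trend (0.0882). APITD1, a histone-fold partner of FANCM in a locus joined with CORT, fell by 0.32 (adjusted p = 0.0370), with 0.0608 under the replicate block and a range of 0.010 to 0.139. It was not called without si-CTRL replicate 2 (0.0513), si-CTRL replicate 3 (0.113) or si-SAM68 replicate 1 (0.0860), 2 (0.121) or 3 (0.139). Its call was also lost with no filter (0.0537), without the trend (0.0822) and by edgeR with the block (0.0558). The number of further repair genes called was 6 without si-CTRL replicate 1, beside 2839 of 18849 loci. It was 1 without any 1 of the si-SAM68 libraries, beside 625 to 923 loci. With all 6 libraries it was 7 by DESeq2 and 1 without limma's trend, beside 2811 and 899 loci. With the replicate block it was 4, beside 1697 loci, as SFR1 and FAAP100 were then called and APITD1 was not. SFR1 and FAAP100, named after their values were seen, had log2 fold changes of 0.48 and -0.55 and adjusted p-values of 0.0970 and 0.0687 without the block.

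DNA replication genes, which act in the same phase of the cycle as recombination, had 10 of 38 called, 3 higher and 7 lower, or 26.3% beside 10.7% of all loci tested, and a median log2 fold change of -0.14. The cyclins that start S phase moved in opposite directions. CCNE1 stood at 446, 356 and 415 in si-CTRL and at 219, 189 and 241 in si-SAM68 and fell by 0.91 (adjusted p = 0.00419). CCNE2 stood at 1437, 1355 and 1512 in si-CTRL and at 2418, 2410 and 2582 in si-SAM68 and rose by 0.78 (adjusted p = 0.000778). GINS1 of the replicative helicase rose by 0.55 (adjusted p = 0.0250), a call lost without si-SAM68 replicate 1 (0.0775), 2 (0.0639) or 3 (0.123) and without limma's trend (0.102), while its partner CDC45 fell by 0.43 (adjusted p = 0.00811), a call lost without si-SAM68 replicate 2 (0.0502). The number called was 6 without si-CTRL replicate 3 or si-SAM68 replicate 1, beside 1103 and 923 of 18849 loci. It was 3 and 4 when si-SAM68 replicates 2 and 3 were left out in turn, beside 808 and 625 loci. With all 6 libraries it was 4 without limma's trend, beside 899 loci, and 8 with the replicate block, beside 1697. RFC4 and FEN1, named after their values were seen, were not called with the block.

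Of 20 mitosis genes limma called 0, beside 10.7% of all loci tested, around a median log2 fold change of 0.07. At an unadjusted p under 0.05 there were 5 (25%), beside 27% of all loci. edgeR called 0, beside 2026 of 18849 loci, and DESeq2 called 3, beside 2811. Without si-CTRL replicate 1 limma called 1, beside 2839 loci. The members lay between -0.42 and 0.40 and the mitosis genes between -0.26 and 0.36. The further repair genes ran from -0.55 to 0.55 and the DNA replication genes from -0.91 to 0.78, as the plot of gene lists shows. The difference between lists was not tested.

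**Figure D5:**
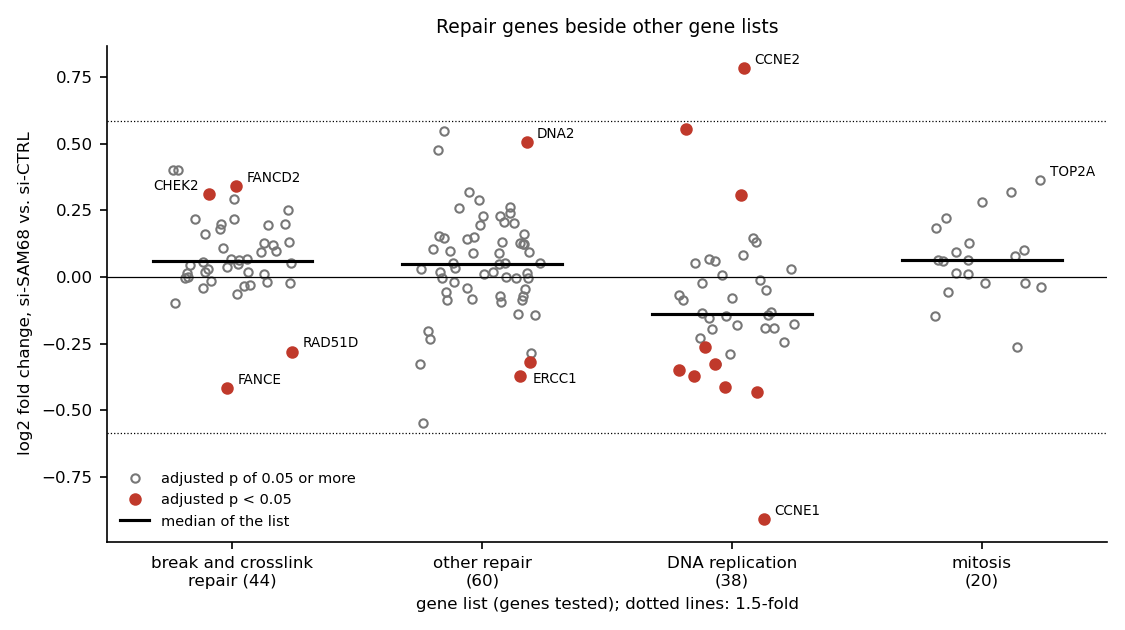
Log2 fold change (si-SAM68 over si-CTRL) of each tested gene of the repair members, further repair genes, DNA replication and mitosis, 1 point a gene with a line at the median. The medians are 0.06, 0.05, -0.14 and 0.07, and the members lie between -0.42 and 0.40.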

How the data were processed

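Poly(A)-selected RNA of 6 MDA-MB-231 libraries was measured by sequencing. The authors deposited a normalized signal: reads on FAST DB (hg19) loci divided by the DESeq2 size factor of the library, with STAR 2.4.0, FastQC, Picard, SAMtools and DESeq2 named in the notes. Whole reads were recovered, as all values lay within 0.1 of a step of a whole multiple.

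The si-SAM68 and si-CTRL libraries were compared with limma 3.58.1 (trend, log2 of the value plus 1, loci with a mean of at least 10) in R 4.3.3. P-values were adjusted over all 18849 loci by Benjamini-Hochberg, with a threshold of 0.05, and intervals are limma's 95% intervals. The 18 alternatives held pseudocounts of 0.1 and 5, a minimum mean of 50, no filter, TMM scaling factors and quantile normalization. They also held limma with no trend, with a robust fit, with a replicate block and with each library left out. The others were DESeq2 1.42.0 and edgeR 4.0.16 without and with that block. The main limma fit, limma with the replicate block, edgeR without it and DESeq2 were also run on simulated data, with no outcome reported here. Libraries of the same number correlated at 0.105, 0.231 and 0.125 after removing group means, others at -0.125 to 0.00687, so the replicate number was used as a block in an alternative.

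The members and lists were chosen with earlier results of these data known. Named with values were KHDRBS1, members called, 1 core gene a role, and up to 4 called genes of each other list (other repair, DNA replication, mitosis) with the largest differences and a mean of at least 50. Other genes with library values were chosen after those were seen. Lists of cell line markers and of other cell types served as a check. Some results chosen for the comparison are not reported here. Of the listed genes, 3 were listed under an older symbol and matched by the newer one. The transcript per gene was the GENCODE v29 principal one by APPRIS, then the longest coding one, and served for lengths and 3′UTRs. siRNA sequences are from the study's supplementary table, promoters from RefSeq (GRCh38.p14).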

Additional observations from a re-analysis of the deposited data

How the results depend on the processing

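Of 792 member values under 18 alternatives, 715 kept their direction and their side of the threshold, 13 were newly called and 26 lost the call. The other 38 turned sign, in 20 members, and 0 of these were called in any fit. XRCC5 turned to -0.0044 and NHEJ1 to 0.0244 with quantile normalization, and XRCC4 to 0.0017 with edgeR and 0.0007 with DESeq2. Over the left-out libraries, log2 fold changes ran for ATR from -0.0002 to 0.200, ATRIP from -0.0343 to 0.0239, NBN from -0.140 to 0.0096, RBBP8 from -0.0525 to 0.0376, BLM from -0.0035 to 0.0627, WRN from -0.0045 to 0.0629 and BRCA1 from -0.0325 to 0.0639. They ran for PALB2 from -0.0826 to 0.0343, BRCA2 from -0.127 to 0.112, RAD51B from -0.0236 to 0.277, XRCC2 from -0.0849 to 0.0697, XRCC3 from -0.0337 to 0.196, RAD52 from -0.0753 to 0.199 and RAD54L from -0.0367 to 0.0591. They ran for XRCC4 from -0.0841 to 0.0569, LIG4 from -0.0371 to 0.0614, NHEJ1 from -0.109 to 0.0292, FANCG from -0.0946 to 0.0351 and FANCL from -0.190 to 0.0607. With no filter on low values 2240 loci passed the study's thresholds, with 0 members. By adjusted p under 0.05, 1500 loci were then called, with 2 members. Without the trend in limma 899 loci were called, with 1 member, 1 further repair gene and 4 DNA replication genes. DESeq2 called 2811 loci, with 7 members, 7 further repair genes, 13 DNA replication genes and 3 mitosis genes. Leaving out 1 library at a time gave 625 to 2839 loci called, 0 to 7 members, 1 to 6 further repair genes, 3 to 13 DNA replication genes and 0 to 1 mitosis genes. These runs have fewer libraries. The replicate block gave 1697 loci and 5 members, and edgeR with that block, an alternative chosen after seeing the data, gave 1722 and 5. The median of the members ranged from 0.04 to 0.09. The cause of the other changes was not tested. With 3 libraries a group, small differences of members with few reads, such as BRCA2 and RAD52, were not detectable beyond their intervals.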
